A study of Mus musculus with 8 samples.

Results

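The 10 genes described here encode the core of the insulin signalling pathway: the receptor (Insr), its docking proteins (Irs1 and Irs2), a regulatory and a catalytic subunit of phosphatidylinositol 3-kinase (Pik3r1 and Pik3ca), the kinases that act below it (Akt1 and Akt2), 2 transcription factors that these kinases inhibit (Foxo1 and Foxo3), and Igfbp1, a secreted protein that insulin represses in liver. They were taken by gene symbol from a table of 17810 genes, and all 10 were found and passed the filter on low counts that 12395 genes passed. The values come from RNA-Seq of whole livers of 4 WT and 4 HKO mice, all of which were 5 months old and had been fed, from the age of 8 weeks, a high-fat diet without choline (CD-HFD) over 3 months. HKO mice are littermates of the WT mice that carry floxed miR-33 alleles and an Albumin-Cre transgene, which removes miR-33 in hepatocytes. The authors state that a possible effect of this Cre on miR-33 in cholangiocytes remains to be checked. The mice were male and were fasted before the end point, the livers were perfused with PBS, and 1 library was made per liver. Whether the WT mice carry the floxed alleles is not given in the sources used here. The comparison of HKO with WT livers addresses which liver genes respond to the loss of hepatocyte miR-33 in diet-induced steatosis.

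In the liver, insulin binds its receptor, a tyrosine kinase that phosphorylates IRS1 and IRS2, and these dock phosphatidylinositol 3-kinase, whose lipid product recruits the AKT kinases to the membrane. AKT phosphorylates FOXO1 and FOXO3, which then leave the nucleus, so that insulin lowers the transcription of FOXO target genes, Igfbp1, Irs2 and gluconeogenic genes among them. In fasting the same genes are transcribed more. RNA levels, the quantity measured here, do not report phosphorylation.

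The livers had between 12174339 and 18735785 counts each, and a member had at most 5400 counts in a liver. Levels are given in CPM, read counts relative to a common library size after TMM scaling, and 3 counts, the smallest level taken as measurable, were 0.149 to 0.255 CPM. This floor covers counting error only. All HKO libraries came before all WT libraries in the numbering of the columns, so genotype cannot be told apart from this order. Mir33 was not analysed here, and the genotypes are those of the labels. The 7 defining markers of hepatocytes (Alb, Ttr, Apoa1, Apob, Cps1, Hnf4a and Serpina1c) summed to 90431 to 122598 CPM in WT livers and 82212 to 135064 CPM in HKO livers. Of these, Cps1, Hnf4a and Serpina1c were called higher in HKO livers and 0 were called lower. HKO replicate 2 stood apart in the 5 cholangiocyte markers, whose sum was 107.8 CPM there and 30.8 to 53.1 CPM in the other livers. The 6 Kupffer cell markers summed to 54.7 to 195.7 CPM and the 5 sinusoidal endothelial markers to 49.8 to 188.2 CPM over the 8 livers. The 6 stellate cell markers summed to 399.8 to 482.1 CPM in WT livers and 332.0 to 493.7 CPM in HKO livers. Of these, Col1a1 was called lower in HKO livers (log2 fold change -2.81, edgeR adjusted p = 0.00723) and 0 were called higher. Lrat (-0.18), Dcn (-0.07), Des (0.18), Reln (0.23) and Rgs5 (0.19) were not called. The part of these markers in the results for the members was not tested.

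Because hepatocytes of HKO livers lack a microRNA, the members were searched for its seed, bases 2 to 8 of the mature sequence, which pair with a messenger RNA. The mature miR-33-5p of RefSeq (GRCm38.p6) is shown with its seed in capitals, followed by every 7-base match to it (CAATGCA, or AATGCAA for bases 2 to 7 followed by A) that the longest annotated 3′UTR of a member holds. The matches are in capitals within 22 bases of GENCODE M21 transcripts on GRCm38, each written 5′ to 3′ on the strand of its gene.
mmu-miR-33-5p: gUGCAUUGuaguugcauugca
Insr, chr8:3152805-3152826, minus strand: aatcccccggacatgAATGCAA
Irs1, chr1:82236311-82236332, minus strand: tgtgtgtttgaaatgAATGCAA
Irs2, chr8:10985535-10985556, minus strand: aatatatttaatggCAATGCAg
Pik3r1, chr13:101684547-101684568, minus strand: acacagagagaaagaAATGCAA
Pik3r1, chr13:101681351-101681372, minus strand: caactgtgctttcgCAATGCAt

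Pik3r1 held 2 matches in 4317 bases, while Insr (4747 bases), Irs1 (4525 bases) and Irs2 (2329 bases) held 1 each. The 3′UTRs of Pik3ca, Akt1, Akt2, Foxo1, Foxo3 and Igfbp1 held 0, although those of Foxo1 (6240 bases) and Pik3ca (5655 bases) were the longest among the members. The 8-base match CAATGCAA occurred in 0 of the 10. Over the 11536 tested genes whose annotated 3′UTR had 50 or more bases, 16.2% held a 7-base match and 2.11% an 8-base match, with a median length of 1214 bases. A match is a description of the sequence and does not show that the site is used.

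The promoters of Irs2 and Igfbp1 are shown because these genes were the 2 members whose genotypes did not overlap, and because both are known FOXO targets. Each run holds 250 bases before and 50 bases after an annotated start in RefSeq (GRCm38.p6), 5′ to 3′ on the strand of the gene. Capitals mark CAAAACA or its reverse complement TGTTTTG, letters of the insulin response element that FOXO proteins bind.
Irs2, chr8:11008880-11009179, minus strand: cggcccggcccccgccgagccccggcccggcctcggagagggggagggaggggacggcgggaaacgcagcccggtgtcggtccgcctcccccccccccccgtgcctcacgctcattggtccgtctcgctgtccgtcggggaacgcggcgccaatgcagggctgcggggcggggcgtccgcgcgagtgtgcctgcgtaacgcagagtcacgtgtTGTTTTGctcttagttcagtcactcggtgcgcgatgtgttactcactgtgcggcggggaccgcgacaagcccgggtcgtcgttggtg
Igfbp1, chr11:7197537-7197836, plus strand: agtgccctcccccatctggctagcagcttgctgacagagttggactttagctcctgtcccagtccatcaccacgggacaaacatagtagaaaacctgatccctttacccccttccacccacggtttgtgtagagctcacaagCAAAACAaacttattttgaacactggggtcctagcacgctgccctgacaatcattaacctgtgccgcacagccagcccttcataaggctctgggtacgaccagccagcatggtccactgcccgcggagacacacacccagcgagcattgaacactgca

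CAAAACA, searched on both strands, was found in the promoters of 3 of the 9 members with an entry, which were Irs1 with 2 matches and Irs2 and Igfbp1 with 1 each. Some members have several promoters, and counted by promoter this is 3 of 14. The match began at position -37 from the start in Irs2 and at -108 in Igfbp1. Of all 32851 promoters of this length, 6.28% hold it. A second FOXO motif, TGTTTAC (reverse complement GTAAACA), was found in 1 member, Akt1, in 1 of the 14 promoters of the members, and in 3.65% of all promoters. The promoters differed in composition, with 41 CpG dinucleotides in the 300 bases of Irs2 and 8 in those of Igfbp1. Among the insulin-repressed genes described further on, CAAAACA was found in 2 of the 12 with an entry, G6pc and Ccng2 (2 of 14 promoters). Among the insulin-induced genes it was found in 1 of 10, Thrsp (1 of 14 promoters). These matches are letters in a window and say nothing of binding.

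Of the 10 members, Irs2 was called higher in HKO livers, 0 were called lower (0 by DESeq2 and limma-voom as well, and 0 lower at an unadjusted p under 0.05) and 9 were not called, where a call is a Benjamini-Hochberg adjusted p under 0.05 over all genes tested in edgeR's quasi-likelihood model. Among all 12395 genes tested, 624 were called (5.03%), 206 higher (1.66%) and 418 lower (3.37%). The genotypes did not overlap in 2 members, Irs2 and Igfbp1, each higher in HKO livers, as in 12.5% of all genes tested, or 5.34% with HKO livers higher. The fitted log2 fold change (HKO minus WT) was above 0 in 8 members and below 0 in Pik3r1 and Pik3ca, with a median of 0.09 beside 0.01 over all genes tested. Under total count scaling Irs1, Akt2 and Foxo3 came out below 0 as well. An unadjusted p under 0.05 was reached by Irs2 and Foxo1, and by 19.8% of all genes tested. In whole livers, fewer cells of a type and less RNA per cell cannot be told apart.

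**Figure D1:**
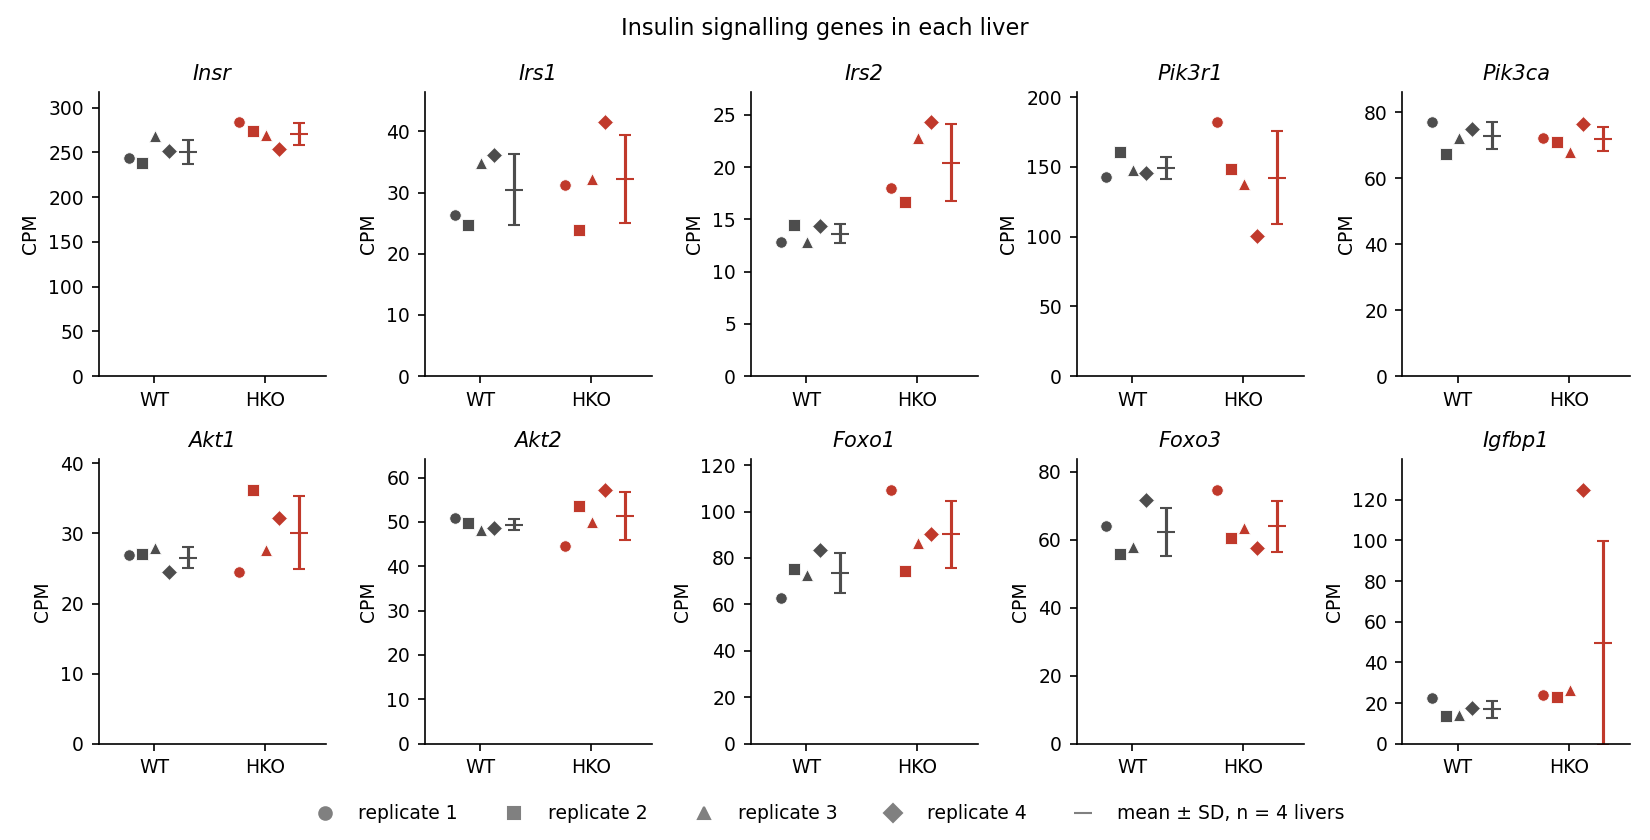
CPM of each member in the 4 WT and 4 HKO livers, with marker shapes for replicate numbers and the mean ± SD (n = 4 livers) at the side of each genotype; every vertical axis starts at 0, and the lower SD bar of Igfbp1 in HKO livers passes 0. All 4 HKO livers lie above all 4 WT livers for Irs2, and HKO replicate 4 stands at 125 CPM of Igfbp1 where the other HKO livers are at 22.9 to 26.4.

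Insr encodes the insulin receptor and lies on chromosome 8 from 3150922 to 3279617 (minus strand, GRCm38). Its level was 243.55, 238, 268.6 and 251.5 CPM in WT replicates 1 to 4 and 283.5, 274.4, 269.3 and 254.2 CPM in HKO replicates 1 to 4. The genotypes overlapped only through HKO replicate 4, which lay below WT replicate 3, and the other HKO livers were above every WT liver. The mean was 250.4 ± 13.3 CPM in WT and 270.3 ± 12.3 in HKO livers (SD, n = 4 each). A log2 fold change of 0.11 had a 95% interval from -0.05 to 0.27 (edgeR, adjusted p = 0.456), so a rise of more than 1.21-fold lies outside it. Insr varied little between livers of a genotype: its SD of 0.07 in log2 CPM was below that of all but 3.36% of the genes tested, where the median was 0.20.

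Irs2 was the member called, and it is the docking protein whose transcription in liver is known to be high in fasting and low after feeding. It lies on chromosome 8 from 10984681 to 11008929 on the minus strand. WT livers held 12.8, 14.45, 12.8 and 14.4 CPM, and HKO livers held 18.02, 16.7, 22.8 and 24.3 CPM in the order of their replicate numbers. The WT livers were close together, while HKO replicates 3 and 4 were higher than HKO replicates 1 and 2. The genotypes did not overlap (exact permutation test, two-sided, p = 0.0286, the smallest that 4 livers against 4 allow). Every gene without overlap gets this p, so it adds nothing to the lack of overlap. Irs2 was 1.499-fold higher in HKO livers, with a 95% interval from 1.23 to 1.83. Its log2 fold change was 0.58 (SE 0.13, adjusted p = 0.0264 from edgeR, 0.00398 from DESeq2 and 0.0312 from limma-voom). Across the fits that omit a liver, the log2 fold change stayed between 0.49 and 0.67. The call was lost without WT replicate 1, 2 or 3 and without HKO replicate 3 or 4, with adjusted p from 0.0599 to 0.084 in these 5 fits. It was also lost with the replicate number as a block (adjusted p = 0.0564). Irs2 had the fewest counts of the members, at most 404 in a liver. A gene listed on the other strand that overlaps part of it, 9530052E02Rik, had 1 count in 1 liver and 0 in the others. Of the hepatocyte markers, Cps1 (log2 fold change 1.26, edgeR adjusted p = 0.00433), Serpina1c (0.90, adjusted p = 0.0219) and Hnf4a (0.36, adjusted p = 0.0406) also rose. Not called were Apoa1 (0.49, adjusted p = 0.155), Alb (-0.03, adjusted p = 0.967), Ttr (-0.08, adjusted p = 0.803) and Apob (-0.11, adjusted p = 0.7), and the part of these markers in the result for Irs2 was not tested.

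Irs1, the other main docking protein of the liver, lies on chromosome 1 from 82233105 to 82291439 on the minus strand. It was at 26.3, 24.6, 34.8 and 36.2 CPM in WT livers and 31.2, 23.9, 32.2 and 41.5 CPM in HKO livers. The genotypes overlapped along most of their range, and the lowest and the highest level each came from an HKO liver, replicates 2 and 4. Its log2 fold change was 0.08, with a 95% interval from -0.31 to 0.47 (edgeR, adjusted p = 0.864), and the sign changed without HKO replicate 4 (-0.06) and without WT replicate 2 (-0.01). The ratio of Irs2 to Irs1 within a liver was -1.03, -0.76, -1.43 and -1.32 on the log2 CPM scale in WT and -0.79, -0.52, -0.50 and -0.77 in HKO livers. All HKO livers except replicates 1 and 4 exceeded every WT liver in this ratio, since WT replicate 2 lay just above those. The means were -1.14 ± 0.30 (SD, n = 4) and -0.64 ± 0.16 (SD, n = 4), a difference of 0.49 beside fitted log2 fold changes of 0.58 for Irs2 and 0.08 for Irs1.

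Pik3r1 encodes the p85 regulatory subunit that binds phosphorylated IRS proteins and lies on chromosome 13 from 101680761 to 101768217 on the minus strand. Its levels were 143.02, 160.8, 147.9 and 145.3 CPM in WT livers and 181.9, 148.5, 137.5 and 100.8 CPM in HKO livers. WT livers were tightly grouped and lay inside the range of the HKO livers, which held both the highest value, in replicate 1, and the lowest, in replicate 4. Its log2 fold change of -0.07 had a 95% interval from -0.39 to 0.25 (edgeR, adjusted p = 0.852), and without HKO replicate 4 it was 0.06. Its deposited values were fractional in all 8 livers, so some of its reads could have been split with other genes.

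Pik3ca, which encodes the p110α catalytic subunit, lies on chromosome 3 from 32397065 to 32466106 on the plus strand. It was at 76.9, 67.4, 72.3 and 74.9 CPM in WT livers and 72.1, 70.9, 68.0 and 76.4 CPM in HKO livers, all HKO values within the WT range. The log2 fold change was -0.02, with a 95% interval from -0.18 to 0.14 (edgeR, adjusted p = 0.925), that is, from 0.881-fold to 1.10-fold. The sign turned without HKO replicate 3 or WT replicate 1, to 0.01 in each case. Only 4.45% of the genes tested had a smaller SD within a genotype. The ratio of Pik3r1 to Pik3ca on the log2 CPM scale was 1.03 ± 0.16 in WT and 0.95 ± 0.40 in HKO livers (SD, n = 4 each), with 0.40 in HKO replicate 4 and 1.02 to 1.33 in the other HKO livers.

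Akt1 encodes the more widely expressed of the 2 AKT kinases considered here and lies on chromosome 12 from 112653821 to 112674884 on the minus strand. Its level was 26.9, 27.0, 27.9 and 24.45 CPM in WT livers and 24.43, 36.2, 27.7 and 32.2 CPM in HKO livers. HKO replicates 2 and 4 were above every WT liver, and HKO replicates 1 and 3 were within or at the edge of the WT range. Its log2 fold change of 0.18 had a 95% interval from -0.08 to 0.44 (edgeR, adjusted p = 0.443). It was 0.08 without HKO replicate 2, the liver with the highest cholangiocyte marker sum, and whether these 2 values are related was not tested.

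Akt2, the AKT kinase known for its part in insulin action on hepatic glucose and lipid metabolism, lies on chromosome 7 from 27591552 to 27640826 on the plus strand. WT livers held 50.8, 49.8, 48.2 and 48.6 CPM and HKO livers 44.7, 53.6, 49.98 and 57.2 CPM. HKO values spread to either side of the narrow WT range, with replicate 1 below it and replicates 2 and 4 above it. The log2 fold change was 0.06 with a 95% interval from -0.13 to 0.25 (edgeR, adjusted p = 0.778), and -0.03 under total count scaling. The log2 ratio of Akt2 to Akt1 was 0.89 ± 0.08 in WT and 0.78 ± 0.14 in HKO livers (SD, n = 4 each), and HKO replicate 2, at 0.56, lay apart from the other HKO livers, at 0.83 to 0.87. Values of Akt1 and of Akt2 were fractional in 7 livers each, so reads of these related genes could have been split with other genes.

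Foxo1 encodes the transcription factor through which insulin restrains gluconeogenic genes, and it lies on chromosome 3 from 52268337 to 52350109 on the plus strand. It was at 62.6, 75.2, 72.8 and 83.3 CPM in WT livers and 109.3, 74.3, 86.4 and 90.4 CPM in HKO livers. HKO replicates 1, 3 and 4 were above every WT liver, and HKO replicate 2 lay inside the WT range. The mean was 73.4 ± 8.53 CPM in WT and 90.1 ± 14.5 in HKO livers (SD, n = 4 each), and the log2 fold change of 0.30 (SE 0.12) had a 95% interval from 0.03 to 0.56. The unadjusted p of 0.0313 became 0.2 after adjustment over all genes (edgeR), and neither DESeq2 (adjusted p = 0.181) nor limma-voom (adjusted p = 0.213) called it. Leaving out each liver in turn moved the log2 fold change between 0.19 and 0.38.

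Foxo3, which encodes a related factor with many of the same binding sites, lies on chromosome 10 from 42181845 to 42276695 on the minus strand. Its values were 64.0, 55.9, 57.9 and 71.6 CPM in WT livers and 74.7, 60.6, 63.4 and 57.5 CPM in HKO livers, and the genotypes overlapped throughout. The log2 fold change was 0.04 with a 95% interval from -0.19 to 0.27 (edgeR, adjusted p = 0.887), and its sign changed without HKO replicate 1 (-0.04), without WT replicate 2 (-0.01) and under total count scaling (-0.04). The log2 ratio of Foxo1 to Foxo3 was 0.23 ± 0.20 in WT and 0.49 ± 0.15 in HKO livers (SD, n = 4 each). This difference of 0.25 left the genotypes overlapping, with WT from -0.03 to 0.43 and HKO from 0.29 to 0.65.

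Igfbp1 encodes a binding protein that the liver secretes and that limits the action of insulin-like growth factors, and it is a textbook FOXO1 target repressed by insulin. It lies on chromosome 11 from 7197787 to 7202546 on the plus strand. WT livers held 22.7, 13.5, 13.9 and 17.4 CPM, and HKO livers held 23.8, 22.9, 26.4 and 124.9 CPM. HKO replicate 4 was far above all other livers, and the lowest HKO liver exceeded the highest WT liver by little, 22.9 against 22.7 CPM. The same exact test gave p = 0.0286, which again only restates that the genotypes did not overlap. The fitted log2 fold change of 1.55 (SE 0.67) had a 95% interval from -0.05 to 3.16 and was not called (edgeR, adjusted p = 0.267). Without HKO replicate 4 it was 0.54 (adjusted p = 0.133), and when any other liver was left out it lay between 1.47 and 1.79. DESeq2 gave no p for Igfbp1, which its rule on extreme counts left out, and limma-voom gave an adjusted p of 0.398. The SD of Igfbp1 within a genotype, 0.87 in log2 CPM, exceeded that of 97.7% of the genes tested and was the highest of the members.

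**Figure D2:**
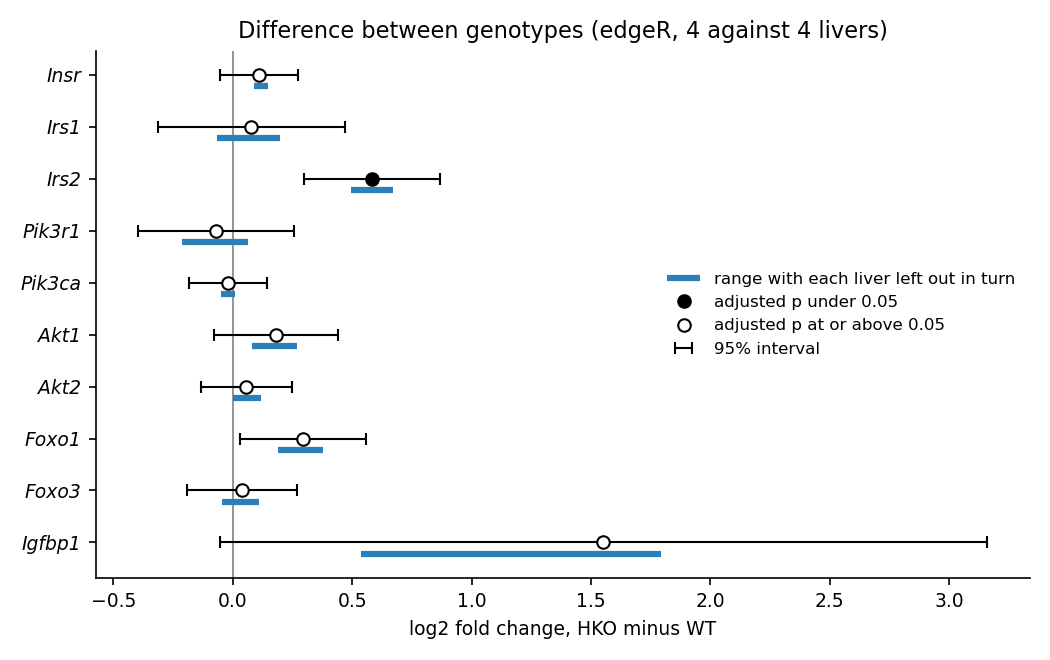
Log2 fold change (HKO minus WT, horizontal axis) of each member from edgeR with its 95% interval, and in blue the range when each of the 8 livers is left out in turn; the filled point marks the gene with an adjusted p under 0.05. The interval of Irs2 runs from 0.30 to 0.87, and that of Igfbp1, from -0.05 to 3.16, is the widest.

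Levels of different members were compared as CPM per kilobase of exons (the union of the exons that GENCODE M21 annotates on GRCm38). In WT livers Insr was highest, with 18.2 ± 0.971 CPM per kilobase (SD, n = 4), followed by Pik3r1 (14.8), Igfbp1 (11.05), Foxo1 (8.48), Foxo3 (8.24), Pik3ca (8.02), Akt2 (6.92), Akt1 (6.48), Irs1 (3.33) and Irs2 (2.15 ± 0.146). Neighbours in this order did not overlap between Insr and Pik3r1, between Pik3ca and Akt2, between Akt1 and Irs1, and between Irs1 and Irs2, and the livers of all other neighbours overlapped. In HKO livers the mean of Igfbp1 came before that of Insr, at 32.5 ± 32.97 against 19.7 ± 0.892 CPM per kilobase (SD, n = 4 each). That place rested on HKO replicate 4, at 81.9 CPM per kilobase, since the other HKO livers, at 14.98 to 17.3, were below every HKO value of Insr. Irs1 and Irs2 were the lowest members in either genotype. In WT livers every Irs1 value (2.69 to 3.96) exceeded every Irs2 value (2.03 to 2.29), whereas in HKO livers the ranges overlapped (2.62 to 4.53 and 2.64 to 3.84). With the length of the longest transcript in place of the union, Akt2 and Akt1 moved from places 7 and 8 to places 4 and 5 in WT livers, at 10.9 and 9.87 CPM per kilobase.

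**Figure D3:**
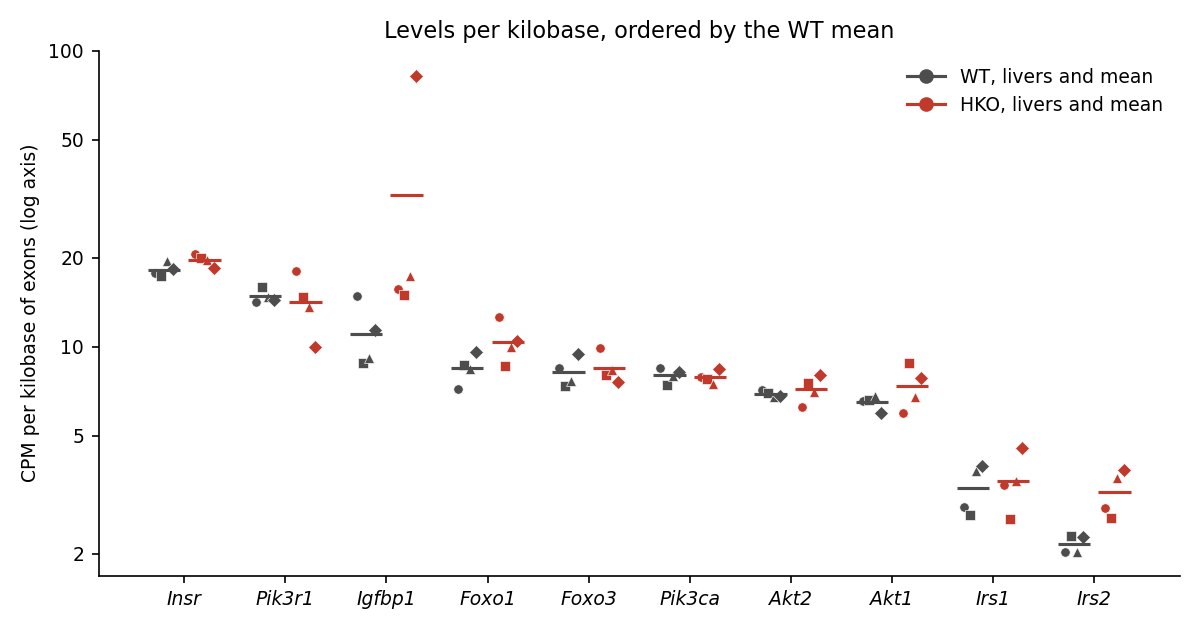
CPM per kilobase of exons (vertical log axis) of the members, ordered by their WT mean, with points for single livers and a line for the mean of 4 livers of each genotype. Insr lies near 18 to 20 CPM per kilobase in either genotype, and Irs1 and Irs2 lie lowest.

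The other genes of the pathway were described in 6 lists, of which 103 genes were tested. Of these 103, 6 were called (5.83%, beside 5.03% of all genes tested), 2 higher and 4 lower in HKO livers. Irs4 was not found in the table, and Sh2b2, Socs1, Foxo6 and Pnpla3 did not pass the filter on low counts.

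Among 17 tested partners of the receptor and the adaptors, 0 were called higher and 1 lower, and the median log2 fold change was 0.01. Of the 16 not called, Mapk3, the kinase ERK1, came nearest with a log2 fold change of -0.38 (edgeR adjusted p = 0.143), and it was called without HKO replicate 2 (-0.53, adjusted p = 0.0315). Shc1, an adaptor that leads to the same kinase cascade, had 0.19 (adjusted p = 0.203) with no overlap between the genotypes. Of 14 partners of phosphatidylinositol 3-kinase and AKT, 0 were called by edgeR, and the 2 with the lowest p were Pik3c2g (log2 fold change -0.45, adjusted p = 0.192) and Pik3c2b (0.26, adjusted p = 0.377), of which Pik3c2g had an unadjusted p under 0.05. DESeq2 and limma-voom also called 0 of the 14. The value of Pik3c2b was 12.04 CPM in HKO replicate 2 and 7.41 to 8.51 CPM in all other livers, and without that liver its log2 fold change was 0.11.

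Among 19 tested brakes on insulin signalling (phosphatases, inhibitory adaptors and kinases for the most part), 0 were called higher and 1 lower. Prkce, the diacylglycerol-activated kinase known to inhibit the insulin receptor kinase, fell from 32.4, 35.5, 28.5 and 28.1 CPM in WT to 25.8, 20.2, 23.4 and 20.7 CPM in HKO livers. The genotypes did not overlap, and the log2 fold change was -0.46 (SE 0.11, edgeR adjusted p = 0.0357). The call was lost without WT replicate 1 or 2 and without HKO replicate 2, 3 or 4, with adjusted p from 0.0631 to 0.128. It was also lost with the replicate number as a block (adjusted p = 0.0709). Ceacam1, which promotes the uptake and clearance of insulin, had 0.26 (adjusted p = 0.188), and Socs2, a growth hormone-induced inhibitor, had 1.14 (adjusted p = 0.355) with overlapping genotypes. Of 24 tested components of the mTOR complexes and AKT substrates, 1 was called. Mtor, the kinase shared by both complexes, fell from 52.9, 59.8, 48.9 and 46.0 CPM in WT to 36.03, 35.2, 36.3 and 33.1 CPM in HKO livers, which were close together and below all WT livers. A log2 fold change of -0.56 (SE 0.09, edgeR adjusted p = 0.00669) was called whichever of the 8 livers was omitted. Pde3b, a phosphodiesterase that AKT activates, had 0.21 (adjusted p = 0.199), and Foxk1, a forkhead factor that insulin signalling also regulates, had 0.24 (adjusted p = 0.308).

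**Figure D4:**
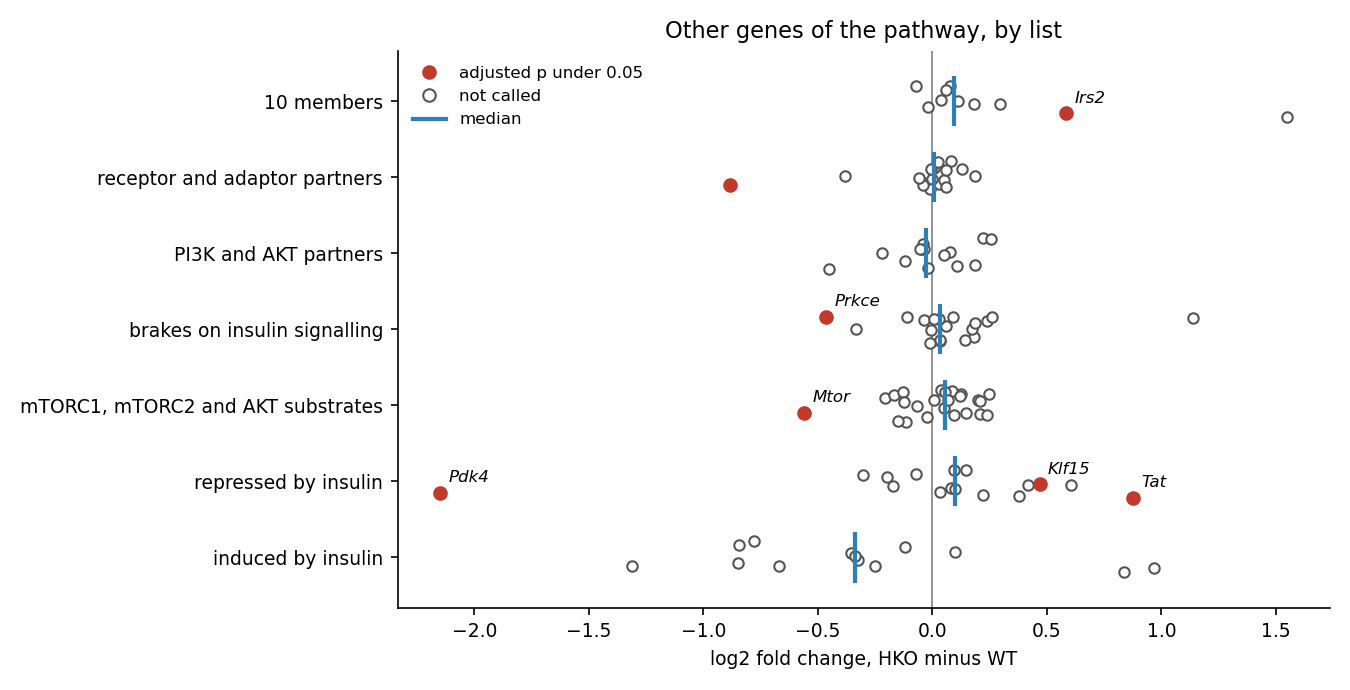
Log2 fold change (HKO minus WT, horizontal axis) of the 10 members and of the tested genes of the 6 lists, with a point per gene, filled where the adjusted p was under 0.05, and a blue line at the median; vertical scatter within a row carries no value. Labels are given to the called genes Irs2, Prkce, Mtor, Pdk4, Klf15 and Tat, and the median of the insulin-induced list lies at -0.34.

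Genes that insulin is known to repress in liver, as it does Igfbp1 and Irs2, made up a list of 16, all of them tested. Of these, 2 were called higher, 1 lower and 13 were not called (3 of 16, 18.8%), with a median log2 fold change of 0.10. Tat, the tyrosine aminotransferase, rose from 450.6, 394.5, 603.5 and 635.5 CPM in WT to 1153, 878.6, 794.6 and 994.6 CPM in HKO livers without overlap. Its log2 fold change was 0.87 (SE 0.17, edgeR adjusted p = 0.0165), and the call was lost without WT replicate 1 (adjusted p = 0.0539). Klf15, a transcription factor that activates genes of amino acid breakdown such as Tat, rose by 0.47 on the log2 scale (adjusted p = 0.0373). It was no longer called without HKO replicate 1, 2 or 4 or WT replicate 1, 2 or 3 (adjusted p from 0.0617 to 0.125). The call was also lost under total count scaling (adjusted p = 0.0828) and with the replicate number as a block (adjusted p = 0.0554). Pdk4, which inhibits pyruvate dehydrogenase and is also a known PPARα target, fell from 12.1, 27.4, 12.04 and 10.8 CPM in WT to 4.05, 2.24, 4.56 and 3.06 CPM in HKO livers. All HKO livers were below all WT livers, and WT replicate 2 was the highest by far. The log2 fold change was -2.15 (SE 0.36, edgeR adjusted p = 0.0145). The call was lost without HKO replicate 4 (-2.09, adjusted p = 0.0541) and with the replicate number as a block (-2.05, adjusted p = 0.0627). Fbxo32, a ubiquitin ligase and FOXO target, had 0.42 without overlap (adjusted p = 0.128), and Mttp, needed for lipoprotein assembly, had -0.17 (adjusted p = 0.303).

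Genes that insulin induces, lipogenic and glycolytic enzymes for the most part, numbered 13 tested. By edgeR 0 of them were called, while 2 had an unadjusted p under 0.05, DESeq2 called 2 and limma-voom 0. Of the 13, 10 had a log2 fold change below 0, with a median of -0.34. Me1, the malic enzyme that supplies NADPH for fatty acid synthesis, was 607.7, 476.9, 310.8 and 399.1 CPM in WT livers and 224.8, 208.4, 93.0 and 197.5 CPM in HKO livers. These ranges did not overlap, and the log2 fold change was -1.31 (edgeR adjusted p = 0.0657). Me1 was called by DESeq2 (adjusted p = 0.00332) and under total count scaling (adjusted p = 0.0483). It was also called without HKO replicate 3 (-1.09, adjusted p = 0.0277) and with the replicate number as a block (-1.35, adjusted p = 0.0022). Angptl8, a secreted regulator of lipoprotein lipase, went the other way, with 5.46, 5.51, 5.82 and 4.14 CPM in WT livers and 6.75, 7.18, 14.4 and 12.7 CPM in HKO livers. Again the genotypes did not overlap, and HKO replicates 3 and 4 were highest. A log2 fold change of 0.97 had an adjusted p of 0.0509 from edgeR, 0.00769 from DESeq2 and 0.0973 from limma-voom. In edgeR, Angptl8 was called without HKO replicate 1 (adjusted p = 0.0222) or HKO replicate 2 (adjusted p = 0.0336). It was also called with at least 10 counts in every liver (adjusted p = 0.0482), but not with the replicate number as a block (adjusted p = 0.0999). WT replicate 1 was the highest liver in 9 of these 13 genes, and the median over the list, relative to the mean of each gene over the 8 livers, was 0.76 on the log2 CPM scale in that liver.

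HKO replicate 4, the liver with 124.9 CPM of Igfbp1, was the highest of the 8 livers in 4 of the 10 members (Irs1, Irs2, Akt2 and Igfbp1) and the lowest in Pik3r1. It was also highest in 6 of the 16 insulin-repressed genes, in 6 of the 19 brakes and in 6 of the 24 mTOR components and AKT substrates. Among the 13 insulin-induced genes it was lowest in 4, while HKO replicate 3 was lowest in 5. HKO replicate 1 was likewise highest in 4 of the 10 members, and in 4 of the 16 insulin-repressed genes. HKO replicate 4 was at the opposite end in 2 genes: it was lowest in the repressed Angptl4 (52.7 CPM, beside 56.9 to 80.6 CPM in the others) and highest in the induced Egr1 (15.5 CPM, beside 3.78 to 10.1 CPM). These 2 genes and the next 3, from the repressed list, were chosen after their values were seen. Ppargc1a, a coactivator of gluconeogenic genes, was at 34.6 CPM in that liver and at 16.4 to 21.7 CPM in the others. G6pc, glucose-6-phosphatase, was at 365 CPM there and at 196 to 326 CPM in the others. Pck1, the gluconeogenic carboxykinase, was not highest in that liver, with 2033 CPM there and 2197 CPM in HKO replicate 1. Relative to the mean of each gene over the 8 livers, the median of the insulin-repressed list was 0.27 on the log2 CPM scale in HKO replicate 4 and -0.09 to 0.01 in the other livers. The median of the insulin-induced list was lowest in HKO replicate 3, at -0.44, with -0.27 in WT replicate 3 and -0.23 in HKO replicate 4. The labels give HKO replicate 4 no condition of its own, and what sets it apart was not tested.

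**Figure D5:**
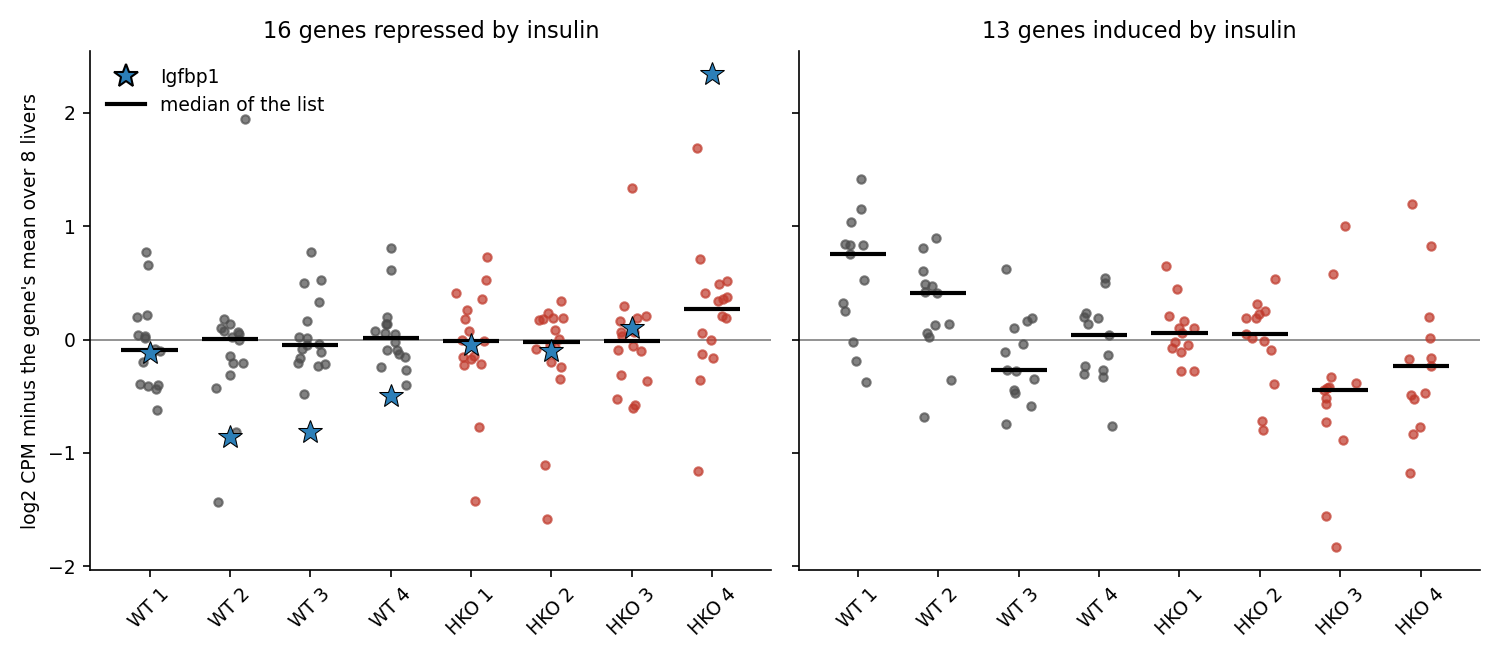
Log2 CPM of 16 insulin-repressed (left) and 13 insulin-induced genes (right) in each liver, relative to the mean of each gene over the 8 livers, with a point per gene, a black line for the median of the list and a star for Igfbp1, which is not on the list. HKO replicate 4 holds the highest median of the repressed list (0.27) and the highest Igfbp1, and WT replicate 1 holds the highest median of the induced list (0.76).

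The genes whose pattern over the 8 livers was most like that of Irs2 were Atp8b1, Tcp11l2, Zfp141, Fga and Dtwd1, by the root mean square difference in log2 CPM after each gene was centred on its own mean. These differences were 0.09 to 0.12, while Irs2 itself varied by 0.33 about its mean. Fga, the fibrinogen alpha chain, was at 4738, 4499, 4421 and 5084 CPM in WT livers and 5879, 6350, 7814 and 7149 CPM in HKO livers, with HKO replicates 3 and 4 highest, as in Irs2. Likeness to Irs2 fixes the direction of these genes, so no test is given for them.

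For Igfbp1 the most alike were B930025P03Rik, Igfbp2, Cnmd, Bok and Apom, with differences of 0.42 to 0.58 where Igfbp1 itself varied by 0.95. Igfbp2, another IGF-binding protein that the liver secretes, was at 51.7, 42.0, 56.5 and 50.7 CPM in WT livers and 48.9, 69.1, 102.3 and 200.1 CPM in HKO livers. HKO replicate 4 was highest in Igfbp2 as in Igfbp1, and HKO replicate 3 came next. B930025P03Rik was low throughout, at 0.489 to 5.28 CPM. These likenesses are over 8 livers, and HKO replicate 4 was the highest liver in Igfbp1 and in all 5 of these genes.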

How the data were processed

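RNA-Seq libraries of 4 WT and 4 HKO livers were compared, with genotype and replicate number taken from the labels and columns matched to samples by title. Per the labels, rRNA was depleted and a small RNA library kit is also named, so which kind of library was made is unclear. The values that the authors deposited are estimated counts for each gene, without normalization, from Partek's expectation-maximization step; the labels also name the aligner STAR, and no versions. Strand use and build are not given in the sources used here. The starts or ends of all 10 members equal those of RefSeq GRCm38.p6. No column was left unmapped.

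Estimated counts were rounded and tested with edgeR 4.0.16 in R 4.3.3 (TMM, expression filter with a minimum count of 10, robust quasi-likelihood test, Benjamini-Hochberg adjustment over 12395 genes, threshold 0.05). CPM used TMM-scaled libraries, and log2 CPM has 2 as its prior count. SE and 95% intervals come from the test's statistic and degrees of freedom. Other models were limma-voom (limma 3.58.1) and DESeq2 1.42.0, and further alternatives were other scalings and filters, the legacy method, the replicate number as a block, and each liver left out in turn. On simulated counts for 12395 genes, 200 of them changed, the main model recovered 94% of genes with a planted log2 change of 2. It recovered 75% of those with a change of 1, and 9.14% of its calls were unchanged genes, a share above the threshold of 0.05. No log2 change smaller than 1 was planted, so recovery of changes the size of that of Irs2 (0.58) is not known. Exact permutation tests, sequence searches and plots used Python 3.11.15, scipy 1.17.1 and matplotlib 3.10.9. 3′UTRs and exon lengths came from GENCODE M21, and miRNA and promoter sequences from RefSeq, with no promoter entry for Insr.

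The members and lists were chosen with earlier results of these data known. Named are all members, the genes called in each list with the 2 not called that have the lowest p, the 5 genes most alike Irs2 and Igfbp1, and the hepatocyte markers, except for results that are not reported here. Each liver came from a separate mouse.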

Additional observations from a re-analysis of the deposited data

Results flagged for a closer look

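Among 64 groups of 4 livers (members, named genes and ratios), 7 held a liver far from the other 3 of its genotype, where chance gives about 1 in 20, or 3.2. Igfbp1 was at 125 CPM in HKO replicate 4 and at 22.9 to 26.4 CPM in the other HKO livers. The log2 ratio of Akt2 to Akt1 was 0.564 in HKO replicate 2 and 0.83 to 0.87 in the other HKO livers. Pik3c2b was also set apart in HKO replicate 2, at 12 CPM beside 8.23 to 8.51 CPM. Pde3b was at 211 CPM in HKO replicate 1 and at 178.7 to 184 CPM in the others. In WT livers, Pdk4 was at 27.4 CPM in replicate 2 beside 10.8 to 12.1 CPM, Mttp at 640 CPM in replicate 1 beside 563 to 576 CPM, and Mapk3 at 17.9 CPM in replicate 4 beside 20.3 to 20.5 CPM. What set these livers apart was not tested.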

How the results depend on the processing

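The number of members called was 1 under each other model, scaling and filter, 0 with the replicate number as a block and 0 to 1 when each liver was left out. Over all genes, DESeq2 called 989, and leaving out each liver gave 212 to 598. In those fits the partners of the receptor and adaptors had 1 to 2 calls, the brakes 0 to 1, the insulin-repressed genes 1 to 3 and the insulin-induced genes 0 to 1. The insulin-induced genes had 2 calls with DESeq2 (Me1 and Angptl8). They had 1 with at least 10 counts in every liver (Angptl8), total count scaling (Me1) or the block (Me1). Deviations of same-numbered livers from their genotype means correlated at -0.06, 0.01, -0.08 and -0.15 over the genes tested. No WT liver correlated best with the HKO liver of its own number. Correlations over all genes cannot exclude that the numbers pair the livers. The block left 456 genes called and moved the adjusted p of Irs2 to 0.0564 and that of Me1 to 0.0022. It gave 0 calls among the brakes and 1 among the insulin-repressed genes. Signs turned under total count scaling in Irs1 (-0.0198), Akt2 (-0.0306) and Foxo3 (-0.0445), none of them called. When a liver was left out they turned in Irs1 (-0.064 to 0.197), Pik3r1 (-0.21 to 0.0643), Pik3ca (-0.0507 to 0.00872) and Foxo3 (-0.0434 to 0.112). The members with a seed match fell from 4 to 0 when 8 bases were required. With longest-transcript lengths, WT levels per kilobase were 26.8 for Insr, 20.99 for Pik3r1, 10.9 for Akt2 and 9.87 for Akt1. Alternatives for list genes were chosen after seeing the data. The cause of these shifts was not tested. With 4 livers a genotype, members with small differences can be bounded only by their intervals.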
